A study of Homo sapiens with 6 samples.

Results

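The genes of cholesterol synthesis and of the SREBP system were compared between HPSE-knockdown and control SW480 cells, an established line grown from a primary colorectal adenocarcinoma. The list holds 34 genes that were taken by name, with earlier results of these data known. Of these, 30 have a row of their own in the deposited table of 59192 features. FDFT1, CYP51A1, TM7SF2 and FADS2 have no row under their Ensembl identifier and were not analysed here. All cells carried Cas9 from a lentivirus and were selected with puromycin. The control cells (SW480-NC, 3 libraries) also carried a control guide RNA, and the knockdown cells (labelled SW480-45, 3 libraries) a guide against HPSE, the gene of heparanase. The study names SW480-KD1 as its sequenced knockdown line. It used stable infected cells of 1 guide and does not state whether they were cloned. The 3 libraries of each line came from independent experiments.

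Cholesterol is built from acetyl-CoA through mevalonate, prenyl diphosphates and squalene, in a chain of enzymes bound largely to the endoplasmic reticulum. Transcription of most of these enzymes is driven by SREBP-2, and that of the fatty acid synthesis enzymes by SREBP-1c. Both precursors are held in the endoplasmic reticulum by SCAP and the INSIG proteins while membrane sterol is high, and are released to the Golgi and cleaved when it falls. The opposing arm is set by the liver X receptors, which bind oxysterols and raise the cholesterol exporters ABCA1 and ABCG1 as well as SREBF1 and SCD. Colorectal tumour cells, like other dividing cells, make membrane lipid through these pathways.

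The libraries held 33221323 to 39802365 recovered reads. HPSE had 136, 172 and 146 normalized counts in SW480-45 and 270, 295 and 246 in SW480-NC, and its mean in SW480-45 was 56.1% of that in SW480-NC, with no overlap. Its log2 fold change of −0.83 just missed the threshold (limma adjusted p = 0.0547) and passed it in DESeq2 (adjusted p = 0.000948). Of 8 epithelial markers, 5 had a row. EPCAM, KRT8, KRT20 and VIL1 had at least 4452 normalized counts in every library, CDX2 had 19.0 to 40.3, and KRT18, CDH1 and CEACAM5 had no row. KRT20, a keratin of differentiated colon epithelium, had a log2 fold change of −0.81 (limma adjusted p = 0.00719). The other epithelial markers with a row were not called. KRT8 had −0.21, EPCAM −0.09 and CDX2 −0.26, while VIL1 went the other way, at 0.20. Of 9 markers of immune, endothelial and stromal cells, 5 had a row, and their summed level was 392 to 528 normalized counts in SW480-45 and 326 to 363 in SW480-NC. COL1A1 was the largest part of that sum, with means of 309 in SW480-45 and 218 in SW480-NC (limma adjusted p = 0.297). ACTA2 averaged 91.6 and 78.8, and PECAM1, VWF and PDGFRB averaged 33.8 or less in either line. Limma called none of these 5. PTPRC, CD3E, CD68 and DCN had no row. The part of these marker differences in the results was not tested. In bulk RNA, fewer cells that express a gene and less of its RNA per cell cannot be told apart.

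Promoter sequences were looked up for the members whose RNA carries the results below, since SREBP-2 acts on sterol genes together with NF-Y, which binds the CCAAT box. The RefSeq table (GRCh38.p14) gave windows of 300 bases, from 250 before to 50 after a transcript start, for 29 of the 34 genes, in 41 windows. It holds no entry for ACAT2, FASN, SQLE, ABCG1 and FDFT1. CCAAT, read on either strand and counted also where matches overlap, was in 69.6% of the 23 windows of sterol enzymes (16 genes, CYP51A1 and TM7SF2 included) and in 34.6% of all 35116 windows. At least 2 matches were in 47.8% of the sterol enzyme windows and in 10.8% of all windows. The GC box GGGCGG was in 87% of the sterol enzyme windows and in 45% of all. The sterol regulatory element, searched on both strands as TCACNCCAC, was in 1 member window, that of SREBF2, and in 1.13% of all. These matches describe letters in a window and are not binding sites shown here. The stretches printed lie before the start and touch no annotated exon, and capitals mark CCAAT or its reverse complement ATTGG. They are IDI1 (chr10:1049171-1049369, minus strand), LSS (chr21:46228825-46229024, minus strand), MSMO1 (chr4:165327419-165327622, plus strand) and SCD (chr10:100346983-100347123, plus strand). The first 3 are sterol enzymes with a lower mean in SW480-45, though the libraries of LSS overlapped, and SCD is the enzyme that was called higher. This choice does not tie CCAAT to the differences. Enzymes with little difference also had it, with 5 matches in MVK and 3 in FDPS. SC5D had 1 match in each window and is not printed. Another window of IDI1 had 0 matches, and a further window of IDI1, also not printed, had 3.
IDI1: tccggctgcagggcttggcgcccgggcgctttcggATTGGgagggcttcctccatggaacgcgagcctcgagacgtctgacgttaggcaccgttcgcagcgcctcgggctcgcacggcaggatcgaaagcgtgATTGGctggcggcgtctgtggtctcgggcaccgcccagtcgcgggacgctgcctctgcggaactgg
LSS: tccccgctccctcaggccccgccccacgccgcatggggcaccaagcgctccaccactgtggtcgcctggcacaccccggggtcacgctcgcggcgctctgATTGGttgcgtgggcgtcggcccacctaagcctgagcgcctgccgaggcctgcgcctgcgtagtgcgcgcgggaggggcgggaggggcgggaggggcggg
MSMO1: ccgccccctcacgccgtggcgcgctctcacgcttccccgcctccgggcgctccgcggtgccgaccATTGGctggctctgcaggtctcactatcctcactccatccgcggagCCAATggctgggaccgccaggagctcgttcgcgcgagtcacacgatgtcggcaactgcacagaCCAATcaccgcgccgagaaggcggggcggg
SCD: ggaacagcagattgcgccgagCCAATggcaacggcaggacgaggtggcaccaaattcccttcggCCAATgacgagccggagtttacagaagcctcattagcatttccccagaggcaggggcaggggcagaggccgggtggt
For SREBF2, the gene of SREBP-2, 30 bases on the plus strand (chr22:41832962-41832991) are shown with the sterol element in capitals.
SREBF2: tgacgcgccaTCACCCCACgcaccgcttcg

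In the comparison of SW480-45 with SW480-NC, ABCG1 and SCD were upregulated, while several enzymes of the later sterol pathway had lower values that did not pass the adjusted test. All 30 members passed the filter of a mean of at least 10 normalized counts. At an adjusted p under 0.05 from limma, 2 of the 30 were higher in SW480-45, against 0.332% of the 21703 features tested. None was called lower by limma, against 0.47% of all features. With features of any level in the fit, IDI1 alone was called lower, against 0.218% of features. At an unadjusted p under 0.05, 3 members were higher and 6 lower, or 10% and 20% of the 30, where all features gave 8.1% and 8.15%. On the reads, edgeR called 2 members higher and 0 lower, where 59 and 77 of the 21703 features were. DESeq2 called 2 higher and 2 lower, against 2.39% and 2.15% of its features. On simulated counts, 43 of 150 calls by DESeq2 were false, against 10 of 94 by limma. No member reached a 2-fold change, so 0 met the study's cut-offs of 2-fold and an unadjusted p under 0.05. With the p taken from limma, 2.42% of features met these cut-offs. The paper names Cuffdiff for its own test, so this share is not the study's outcome. The median log2 fold change was −0.02 over the members and −0.00 over all features. The members are abundant, and 23 of them had a mean of at least 1000 normalized counts. Among the 6810 features at that level, 0.382% were called higher after adjustment, as was SCD. At an unadjusted p under 0.05, 6.99% were higher and 14.9% lower, as were 2 and 5 of the 23 members.

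**Figure D1:**
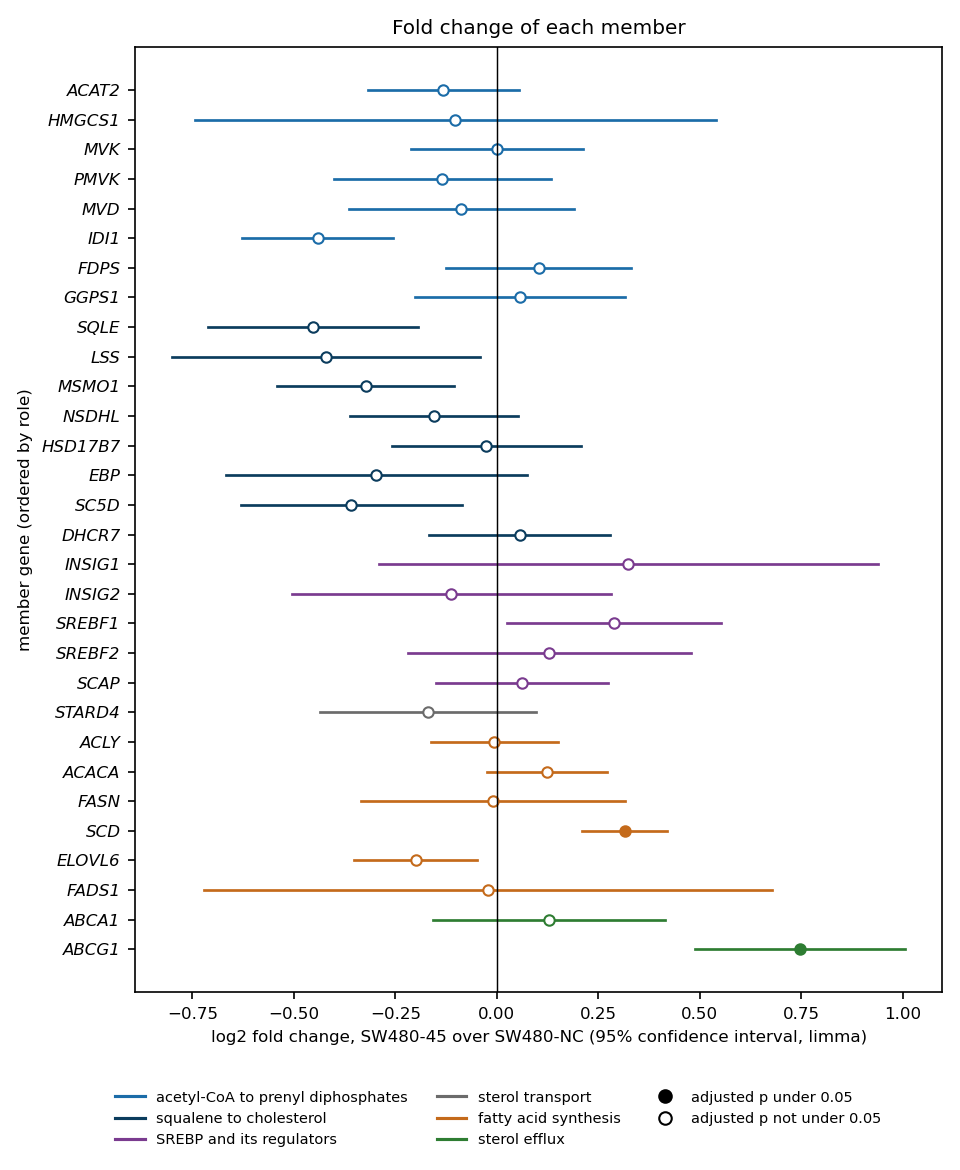
Log2 fold change of SW480-45 over SW480-NC for the 30 members with a row, ordered and coloured by role; lines are 95% confidence intervals from limma with 3 libraries per group. Filled points, SCD at 0.31 and ABCG1 at 0.75, had an adjusted p under 0.05, and the intervals of IDI1, SQLE, LSS, MSMO1, SC5D and ELOVL6 lie below 0.

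Of the exporters and the sterol carrier, ABCG1 was upregulated and ABCA1 and STARD4 were not called. ABCG1, an ABC transporter that moves cholesterol to high-density lipoprotein, had 406, 434 and 390 normalized counts in SW480-45 and 225, 252 and 256 in SW480-NC. Every SW480-45 library was above every SW480-NC library, as in 11.4% of all features. The means were 410.1 ± 22.5 (SD, n = 3) and 244 ± 16.8 (SD, n = 3), a 1.68-fold rise. The log2 fold change was 0.75 (standard error, SE, 0.11, limma adjusted p = 0.0397), the largest of the members in either direction. ABCG1 lies on chromosome 21 of GRCh38, from 42199689 to 42297244 on the plus strand, and its exons overlap no other annotated gene. Its level rested on 215 reads or more in each library. ABCA1, which loads cholesterol onto apolipoprotein A-I, had 355, 400 and 432 normalized counts in SW480-45 and 327, 389 and 369 in SW480-NC. These groups overlapped, and the log2 fold change was 0.13 (95% confidence interval −0.16 to 0.42). The difference between the exporters was not tested. STARD4, a soluble carrier of cholesterol between membranes, had 1933, 1701 and 2115 normalized counts in SW480-45 and 2258, 2308 and 1895 in SW480-NC, also with overlap. Its log2 fold change was −0.17 (95% confidence interval −0.43 to 0.10).

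Of the fatty acid genes, SCD was upregulated and the remaining 5 with a row were not called. SCD, the desaturase that makes oleic and palmitoleic acid, had 81055, 80973 and 84019 normalized counts in SW480-45 and 66488, 63783 and 67614 in SW480-NC. All SW480-45 libraries were above all SW480-NC libraries, as in 9.4% of features with a mean of at least 1000, and each group was tight. Its means were 82016 ± 1736 (SD, n = 3) and 65962 ± 1969 (SD, n = 3), and the rise was 1.24-fold. The log2 fold change was 0.31 (SE 0.04, limma adjusted p = 0.0353). SCD lies on chromosome 10, from 100347124 to 100364834 on the plus strand. Per kilobase of annotated exon it was the highest member in both lines, with a level of 15296 in SW480-45 and 12302 in SW480-NC.

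ELOVL6, which lengthens palmitate to stearate, a substrate of SCD, had 2459, 2434 and 2512 normalized counts in SW480-45 and 2843, 2884 and 2778 in SW480-NC. The groups did not overlap, but the difference was small, at −0.20 on the log2 scale (SE 0.07, limma adjusted p = 0.205). ACLY, which supplies cytosolic acetyl-CoA, had 22173, 23364 and 22157 normalized counts in SW480-45 and 21714, 21661 and 24745 in SW480-NC. Its log2 fold change was −0.01 (95% confidence interval −0.16 to 0.15). ACACA, which makes malonyl-CoA, had a log2 fold change of 0.12 (95% confidence interval −0.02 to 0.27). FASN, the fatty acid synthase, ranged from 23073 to 28820 normalized counts in SW480-45 and from 23289 to 32858 in SW480-NC, with a log2 fold change of −0.01 (95% confidence interval −0.34 to 0.32). FADS1, a desaturase of polyunsaturated fatty acids, had only 39.7 to 81.6 normalized counts in any library, and its interval of −0.72 to 0.68 leaves its direction unread. FADS1 shares exon sequence with FADS2 on the other strand.

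**Figure D2:**
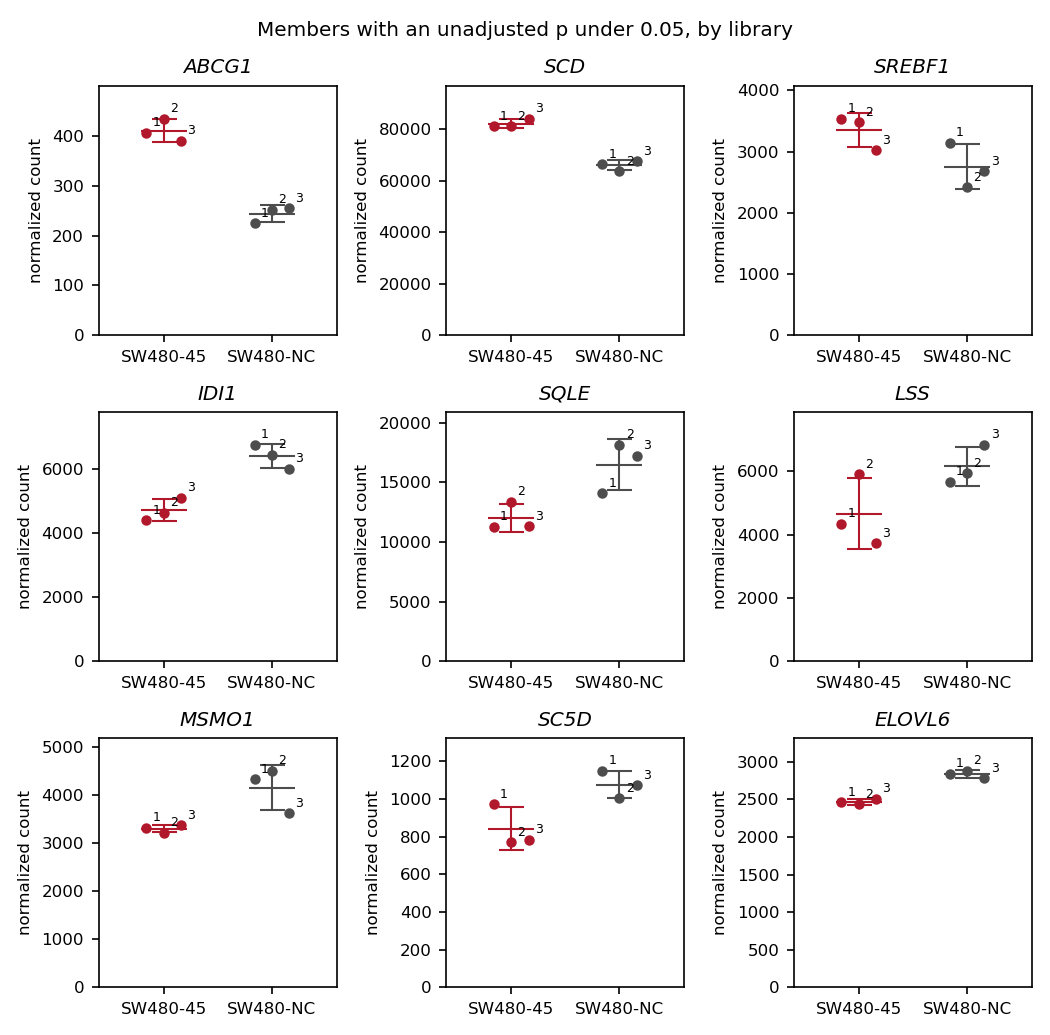
Normalized counts of the 9 members with an unadjusted p under 0.05, 1 panel per gene, with axes from 0; points are libraries, numbered by replicate, and bars show the mean and SD of 3 libraries. The groups are apart in every panel but those of SREBF1 and LSS, and the largest ratio is that of ABCG1.

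The enzymes that lead from acetyl-CoA to the prenyl diphosphates made up 8 members, of which 0 were called by limma and 1, IDI1, had an unadjusted p under 0.05. The 1 lower gene is 12.5% of the 8, where 8.15% of all features and 14.9% of those averaging 1000 or more were lower. MVK and PMVK averaged less than 1000. IDI1, the isomerase of isopentenyl diphosphate, had 4412, 4638 and 5104 normalized counts in SW480-45 and 6757, 6446 and 6009 in SW480-NC. The groups did not overlap, and the mean of SW480-45 was 73.7% of that of SW480-NC. Its log2 fold change was −0.44 (SE 0.08, limma adjusted p = 0.0654), and in DESeq2 on the reads the adjusted p was 0.0042. IDI1 lies on chromosome 10, from 1039152 to 1049170 on the minus strand, and 14.8% of its exon sequence overlaps IDI2-AS1 on the other strand. Whether the counting used strand is not given in the sources used here.

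HMGCS1, the HMG-CoA synthase, had 10006, 5708 and 10910 normalized counts in SW480-45 and 7494, 8151 and 12614 in SW480-NC. The libraries of the lines overlapped widely, and 96.3% of features at 1000 normalized counts or more had a smaller spread between replicates. Its log2 fold change of −0.10 (95% confidence interval −0.74 to 0.54) turned to 0.19 without SW480-45 replicate 2. The thiolase ACAT2 and the phosphomevalonate kinase PMVK both had log2 fold changes of −0.13, and the decarboxylase MVD had −0.09. MVK, the mevalonate kinase, had the smallest difference, at 869 ± 62.0 (SD, n = 3) normalized counts in SW480-45 and 868 ± 20.1 (SD, n = 3) in SW480-NC, with an interval of −0.21 to 0.21. FDPS, which makes farnesyl diphosphate, had 0.10, and GGPS1, which makes geranylgeranyl diphosphate, had 0.06, so these 2 lay above 0. ACAT2 shares exon sequence with SOD2 and TCP1, HMGCS1 with a gene on the other strand, and GGPS1 with TBCE, so part of their reads may belong to those genes. FDPS has 8 annotated pseudogenes that could share its reads.

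From squalene to cholesterol, 8 members had a row, 7 with values below 0, where 11003 of all 21703 features were below 0. The median log2 fold change of these members was −0.31, against −0.09 for the 8 earlier enzymes and −0.00 for all features. A median over features averaging 1000 or more was not taken. None of the 8 members passed limma's adjusted test, and 4 had an unadjusted p under 0.05, all lower in SW480-45. Lower at that p were 8.15% of all features and 14.9% of those averaging 1000 or more. SC5D, 1 of the 4, averaged 959 normalized counts over the libraries. SQLE, the squalene epoxidase and a rate-limiting step, had 11296, 13390 and 11353 normalized counts in SW480-45 and 14071, 18162 and 17227 in SW480-NC. The groups did not overlap. SQLE was at 72.9% of the SW480-NC mean, with a log2 fold change of −0.45 (SE 0.11, limma adjusted p = 0.123 and 0.0233 from DESeq2). LSS, which closes the sterol ring system to lanosterol, had 4347, 5924 and 3741 normalized counts in SW480-45 and 5675, 5946 and 6849 in SW480-NC. SW480-45 replicate 2 lay among the control libraries, and the log2 fold change was −0.42 (SE 0.16, limma adjusted p = 0.269).

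MSMO1, a sterol C4-methyl oxidase, had 3316, 3215 and 3367 normalized counts in SW480-45 and 4320, 4504 and 3617 in SW480-NC. These did not overlap, and the log2 fold change was −0.32 (SE 0.09, limma adjusted p = 0.165). SC5D, the lathosterol desaturase, had 972, 770 and 784 normalized counts in SW480-45 and 1151, 1004 and 1072 in SW480-NC. The lines were again apart, by a log2 fold change of −0.36 (SE 0.12, limma adjusted p = 0.206). NSDHL, which works with MSMO1 in removing the C4 methyl groups, had 2514, 2492 and 2540 normalized counts in SW480-45 and 2728, 2567 and 3135 in SW480-NC. All 3 libraries were below those of SW480-NC, but the log2 fold change of −0.15 had an interval of −0.36 to 0.05. EBP, the sterol isomerase, had 1547, 2169 and 2088 normalized counts in SW480-45 and 2059, 2272 and 2778 in SW480-NC, with overlap and a log2 fold change of −0.30 (95% confidence interval −0.67 to 0.07). HSD17B7, the sterol ketoreductase, had −0.03 (95% confidence interval −0.26 to 0.21). DHCR7, which reduces 7-dehydrocholesterol to cholesterol, had 0.06 (95% confidence interval −0.17 to 0.28).

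Over the 16 sterol enzymes with a row, 5 (31.2%) had an unadjusted p under 0.05 and were lower in SW480-45, and 0 were higher. Lower values at that p were found in 8.15% of all features and in 14.9% of those averaging 1000 or more. SC5D, MVK and PMVK averaged less than 1000, so the 16 are not all at that level. The 5 are IDI1, SQLE, LSS, MSMO1 and SC5D. All 3 SW480-45 libraries were below all SW480-NC libraries in 5 of the 16, namely IDI1, SQLE, MSMO1, SC5D and NSDHL. The share of all features with this separation was 12%, and it was 20.3% among those averaging 1000 or more. The mean deviation of the 16 genes from their own average was −0.08, −0.09 and −0.08 on the log2 scale in the SW480-45 libraries. In the SW480-NC libraries it was 0.05, 0.06 and 0.15. This average is a description of a chosen list and carries no test.

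**Figure D3:**
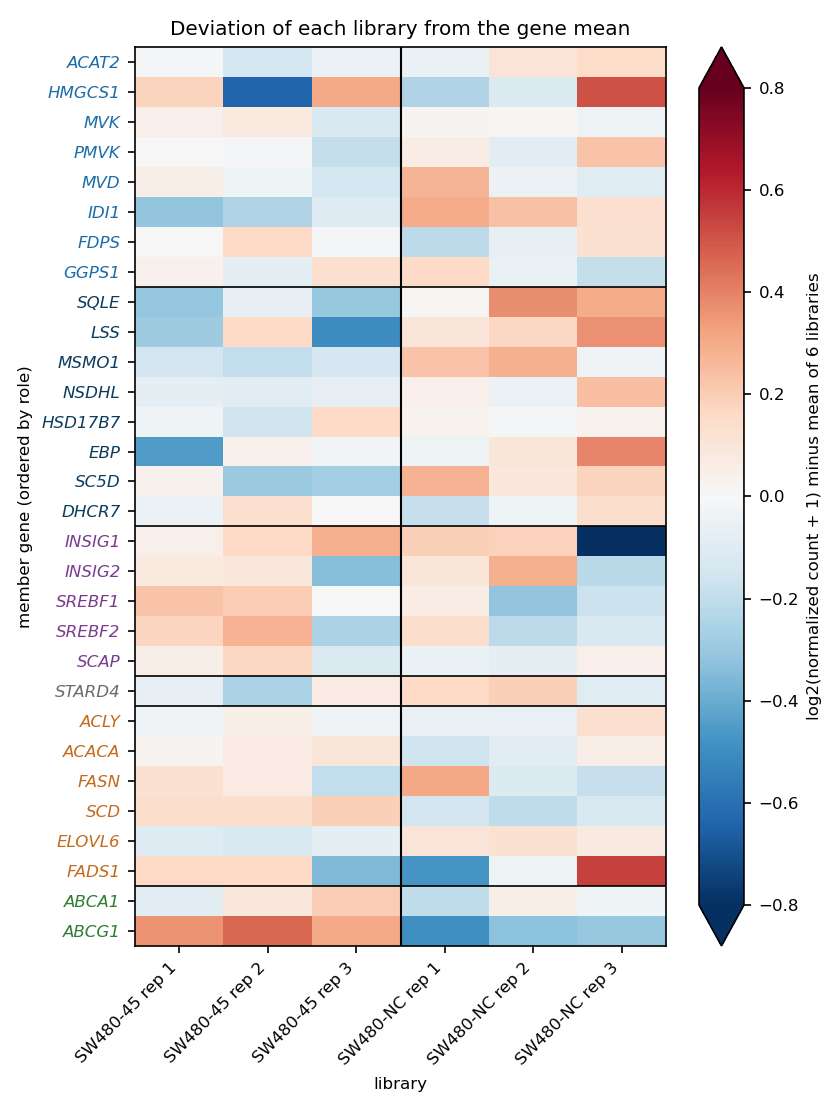
Deviation of each library from the mean of all 6 libraries for each member, on the scale of log2(normalized count + 1); rows are genes in order of role, columns are libraries, red is above and blue below the gene's mean, and the scale ends at 0.8. ABCG1 and SCD are red in all SW480-45 libraries, IDI1, SQLE, MSMO1 and SC5D are mostly blue there, and HMGCS1 and INSIG1 each have a dark blue library.

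Among the regulators, 0 of 5 passed limma's adjusted test. At an unadjusted p under 0.05, 1 of the 5 (20%) was higher, where 8.1% of all features were. SREBF1, the gene of SREBP-1, had 3541, 3482 and 3027 normalized counts in SW480-45 and 3148, 2427 and 2681 in SW480-NC. SW480-45 replicate 3 lay below SW480-NC replicate 1, and the log2 fold change was 0.29 (SE 0.11, limma adjusted p = 0.272). The values do not separate its isoforms. SREBF2 had 8910, 9577 and 6641 normalized counts in SW480-45 and 8722, 6830 and 7266 in SW480-NC. Its libraries overlapped, and the log2 fold change was 0.13 (95% confidence interval −0.22 to 0.48). SCAP, the escort of both precursors, had 0.06 (95% confidence interval −0.15 to 0.27). INSIG1, a retention protein and itself an SREBP target, had 3900, 4221 and 4609 normalized counts in SW480-45 and 4317, 4297 and 2086 in SW480-NC. SW480-NC replicate 3 was far below the other 5 libraries. The log2 fold change was 0.32 (95% confidence interval −0.29 to 0.94) with all libraries and −0.02 without that replicate. INSIG2, which is not driven by SREBP in the same way, had −0.11 (95% confidence interval −0.50 to 0.28).

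**Figure D4:**
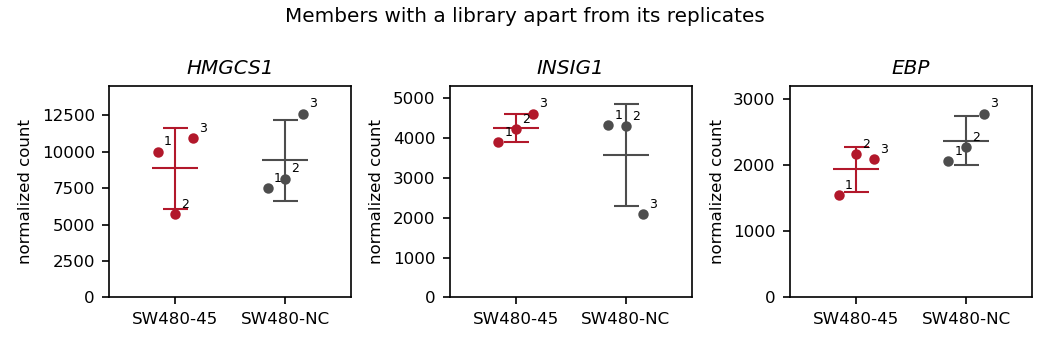
Normalized counts of HMGCS1, INSIG1 and EBP by library, with axes from 0; points are libraries numbered by replicate, and bars show the mean and SD of 3 libraries. HMGCS1 was lowest in SW480-45 replicate 2 at 5708, INSIG1 in SW480-NC replicate 3 at 2086 and EBP in SW480-45 replicate 1 at 1547.

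The calls of ABCG1 and SCD were sensitive to the fit and to the libraries. Without an intensity trend both were lost (limma adjusted p = 0.0992 for ABCG1 and 0.217 for SCD). ABCG1 was also lost with quantile normalization (limma adjusted p = 0.0507), and SCD when features of any level were tested (limma adjusted p = 0.0730). With each library left out in turn, both lost the adjusted threshold in all 6 fits, and their direction held. The log2 fold change of ABCG1 stayed between 0.69 and 0.78 (limma adjusted p = 0.0649 to 0.156). That of SCD stayed between 0.29 and 0.33 (limma adjusted p = 0.0505 to 0.161). IDI1, SQLE and MSMO1 kept an unadjusted p under 0.05 in all 6 of these fits, ELOVL6 in 5, SC5D in 3, and LSS and SREBF1 in 2 each. An exact permutation test of 3 libraries against 3 cannot give a p below 0.1, two-sided, and groups that do not overlap always give that value. It was found for ABCG1, SCD, IDI1, SQLE, MSMO1, SC5D, NSDHL and ELOVL6. It repeats their separation, which 23.4% of all features tested had in either direction.

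Levels per kilobase of annotated exon ordered the members in much the same way in both lines. In SW480-NC, SCD was followed by ACLY at a level of 4352 ± 338 (SD, n = 3) and SQLE at 3830 ± 498 (SD, n = 3), and these 2 differed by little more than their SDs. FASN at 2872 ± 556 (SD, n = 3) and ACACA at 2803 ± 210 (SD, n = 3) differed by less than their spread, as did IDI1, MSMO1, NSDHL, FDPS and DHCR7, between 1349 and 1474. ABCG1 at 39.9 ± 2.74 (SD, n = 3) and ABCA1 at 31.9 ± 2.78 (SD, n = 3) were among the 3 lowest, with FADS1. In SW480-45, ABCG1 stood at 67.0 ± 3.67 (SD, n = 3) and ABCA1 at 34.9 ± 3.41 (SD, n = 3). SQLE stood at 2791 ± 277 (SD, n = 3) there, beside FASN at 2832 ± 325 (SD, n = 3). These levels depend on the exon model used.

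A further 43 genes of sterol and fatty acid metabolism were listed, and 35 of them were tested. Limma called 0 of these at an adjusted p under 0.05, edgeR called 0, and DESeq2 called 1, ELOVL1, as lower. DESeq2 called 2.15% of its features lower and 2.39% higher. At an unadjusted p under 0.05 from limma, 3 were higher (8.57%) and 4 lower (11.4%), near the 8.1% and 8.15% of all features. Their median log2 fold change was 0.02. The lowest were ELOVL1, an elongase of very long saturated chains, at −0.38 (limma adjusted p = 0.114 and 0.0347 from DESeq2), and NUS1, a subunit of the dolichol synthase, at −0.33 (limma adjusted p = 0.119). ELOVL1 had 2899, 3340 and 2780 normalized counts in SW480-45 and 3735, 3846 and 4102 in SW480-NC, with no overlap. The highest were STARD5, a sterol-binding protein that shares 69.6% of its exon bases with other genes and had 21.2 to 53.8 normalized counts, at 0.64 (limma adjusted p = 0.345), and ACACB, the mitochondrial acetyl-CoA carboxylase, at 0.32 (limma adjusted p = 0.233). The liver X receptor genes NR1H3 and NR1H2 had log2 fold changes of −0.06 and −0.23, with overlapping libraries.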

How the data were processed

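RNA of 3 SW480-45 and 3 SW480-NC cultures was sequenced after library preparation with the NEBNext Ultra kit. The submitters' processing notes list bcl2fastq, HISAT2, DESeq2 and GRCh38, and the paper names Cuffdiff. The counting tool and the annotation are not given in the sources used here. What the authors deposited is a normalized signal: the reads of each feature over a size factor of its library. They cover 25927 Ensembl identifiers and 33265 loci of a transcript assembler, and symbols were found for 25595 identifiers. In each library 100% of the values were whole multiples of 1 step, within 0.01, which gave the reads. Libraries of 1 line differed by more than counting noise (chi-square of 21.7 to 26.6 per feature).

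Log2(normalized count + 1) was tested with limma 3.58.1 (trend on intensity) in R 4.3.3. Features averaging 10 or more were kept (21703), and Benjamini-Hochberg adjustment ran across them all. Positive values mean higher in SW480-45, and these fold changes understate changes of low genes. edgeR 4.0.16 (quasi-likelihood) and DESeq2 1.42.0 were run on the recovered reads and called 136 and 756 features. The other alternatives were a pseudocount of 5, all features, a mean of at least 50, TMM and quantile rescaling, no trend, Ensembl features only, a replicate block and each library left out. On simulated counts for the 21703 features of this comparison, limma recovered 72 of 100 features changed 4-fold and 12 of 100 changed 1.5-fold, with 10 false among 94 calls. On the same counts edgeR had 9 false among 93 calls and DESeq2 had 43 false among 150. The DESeq2 calls in the text are to be read with that share of false calls. Coordinates and exon lengths are from GENCODE 29 on GRCh38.

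The members and lists were chosen with earlier results of these data known, and the level of 1000 normalized counts was set after values were seen. Values by library are given for members with a p under 0.05, the largest change of each role and 8 readout genes fixed by name, namely HMGCS1, SQLE, INSIG1, SREBF1, SREBF2, SCD, ABCA1 and STARD4. Values of NSDHL, EBP and ACLY by library were added after they were seen. The 4 most extreme of the other lipid genes, 2 in each direction, are named. The liver X receptor genes were named after their values were seen.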

Additional observations from a re-analysis of the deposited data

How the results depend on the processing

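The 2 members called higher, ABCG1 and SCD, numbered 2 in 6 of the 10 alternatives that kept all 6 libraries. The count was 1 over all features with any value (ABCG1) and 1 with quantile normalization (SCD), and 0 without an intensity trend and with the replicate block (limma adjusted p = 0.171 for ABCG1 and 0.185 for SCD with the block). It was 0 to 0 with each library left out, at log2 fold changes that stayed positive. Members called lower numbered 1 over all features with any value (IDI1, adjusted p = 0.0487 from limma) and 2 in DESeq2 (IDI1 and SQLE), and 0 elsewhere. Features called fell from 174 to 11 without a trend, to 12 with the replicate block and to 29 to 93 with a library left out, and rose to 756 in DESeq2. Among the other lipid genes DESeq2 called 1, ELOVL1, as lower, where it called 2.15% of its features lower. Over the features tested, deviations from the group means correlated at 0.00246, −0.0202 and 0.00741 for the 3 same-numbered pairs. These values show no general pairing by replicate number. They cannot tell whether the experiments were run in pairs, which the labels do not state. Not every library correlated best with its own number. The median log2 fold change of the members stayed between −0.09 and 0.01 in all settings run. Of features simulated with a 1.5-fold change, limma recovered 12 of 100 at this depth and size of group. These were drawn at random from the 21703 features tested, so the share is not one for the more abundant members. In at least 1 setting the log2 fold change had the other sign for HMGCS1, MVK, MVD, GGPS1, HSD17B7, DHCR7, INSIG1, INSIG2, SCAP, ACLY, FASN and FADS1, none of them called.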

Other observations

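TMEM97, a sterol-regulated membrane protein outside the list of members, was picked after its values were seen because a library stood apart. It had 3733, 1879 and 3832 normalized counts in SW480-45 and 2417, 4212 and 4354 in SW480-NC. HMGCS1 had its lowest values in the same pair of libraries, SW480-45 replicate 2 and SW480-NC replicate 1. AACS, also picked after its values were seen, is a cytosolic acetoacetyl-CoA synthetase. It had 2498, 3787 and 2506 normalized counts in SW480-45 and 2238, 3597 and 2627 in SW480-NC, so it was highest in replicate 2 of each line. The spreads of TMEM97 and AACS were larger than those of 97.4% and 93.2% of features with a mean of at least 1000.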
